A study of Homo sapiens with 34 samples.

Results

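The histone genes of 3 human B-ALL (B cell acute lymphoblastic leukaemia) cell lines were examined after loss of cyclin D3 and after inhibition of its kinases. They were taken by symbol: every gene whose symbol begins with HIST1H, HIST2H, HIST3H, HIST4H, H2AF, H3F3 or H1F, or with the newer names of these families. This gave 81 of the 17587 genes listed in at least 1 of the 6 comparisons. By symbol, 65 of them were replication-dependent histone genes (H1 6, H2A 15, H2B 16, H3 14 and H4 14 genes), 15 were variant histone genes (H1 3, H2A 9 and H3 3 genes) and 1 was a pseudogene, HIST2H3PS2. RNA had been sequenced from NALM-6 cells, which carry ETV6-PDGFRB, RS4;11 cells, which carry MLL-AF4, and BV-173 cells, which carry BCR-ABL. In each line, a lentiviral shRNA against CCND3 was set against a scrambled shRNA in the same vector, with the cells sorted 4 days after transduction, and 3 days in 1 µM palbociclib, an inhibitor of the cyclin D kinases CDK4 and CDK6, were set against its solvent DMSO. All cells grew in the same serum-containing medium, the knockdown rests on 1 shRNA sequence, and the knockdown and palbociclib comparisons had separate controls. Each of the 12 groups held 3 samples, but there were 2 for the NALM-6 knockdown and 2 for the BV-173 DMSO control (34 samples in all). The labels do not say whether the samples of a group were separate cultures.

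Histones are the proteins around which DNA is wound. Replication-dependent histones are made in bulk while DNA is copied, from intronless genes that lie in clusters, and their mRNAs normally end in a short stem-loop instead of a poly(A) tail. The stem-loop is bound by SLBP, and the mRNAs are lost when replication stops. Some of these genes can also give polyadenylated mRNAs, a form known from cells that leave the cycle or differentiate. Variant histones come from single genes elsewhere, some with introns and most with poly(A) tails, and are laid down also outside replication. H2A.Z (H2AFZ and H2AFV) is known from promoters, macroH2A (H2AFY) from silent chromatin and the H3 variant of H3F3A and H3F3B from transcribed genes. H2A.X (H2AFX) is known for its role at DNA breaks. The libraries were enriched with oligo dT, which binds poly(A). The values for the replication-dependent genes are therefore values of the captured part of their RNA and not of the whole, and how large a part was captured is unknown. Fewer cells in S phase and less histone mRNA per cell cannot be told apart in bulk RNA.

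The deposited tables give 1 level per group, scaled within each pair of groups, so that no spread between samples could be seen and no SD, n or test accompanies the values that follow. A gene was called higher or lower where the 2 group levels differed by a fold of at least 1.5, and the share of all listed genes called in that direction is given beside the counts. Where 3 values follow each other, they belong to NALM-6, to RS4;11 and to BV-173, in this order. Levels of different comparisons are not on 1 scale. Levels of different genes were compared per kb of the transcript length given in the tables, with 2 exceptions. The marker sums and the choice of the highest members to name used levels without regard to length. The log2 ratios of rarely seen genes were narrow: below a level of 1, 95% of all genes lay within 0.23 to 0.93 of 0, depending on the comparison, against 0.91 to 2.64 at levels from 10 to 100. Folds of low histone genes can thus be understated. Of the 81 genes, 65 were listed in all 6 comparisons. Between 72 and 79 were listed in any 1 of them, and no listed value was 0. HIST2H2AA3 and HIST2H2AA4, HIST2H3A and HIST2H3C, and HIST2H4A and HIST2H4B had the same 12 values within each pair. These are near-identical copies whose reads cannot be split, so each pair counts as 2 genes below but is 1 measurement.

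The stem-loop that ends the mature mRNA is shown here because the oligo dT selection depends on whether an mRNA ends at it. A stem of 6 bases and a loop of 4 was searched for in the 150 bases after the stop codon, in hg38 with GENCODE 44. The stem had to begin with G and the loop with TTT, and 1 mispaired base was allowed. These letters of the forms below were thus set by the rule. It was found in 62 of the 65 replication-dependent genes, 22 to 67 bases after the stop codon, and in 60 of them without a mispaired base. HIST1H3E, HIST1H2BI and HIST1H4L had no match to the rule, which does not show that they lack a stem-loop of another form. The 4 forms held by more than 1 gene are written below, 5′ to 3′ on the coding strand, with the paired stem in capitals. The first is held by 36 genes (among them HIST1H1C, HIST1H2AC, HIST2H2AA3 and HIST2H2BE), the next by 10 (among them HIST1H2BK and HIST1H2BD), the third by 9 H4 genes (among them HIST1H4C) and the last by 4 H4 genes (among them HIST2H4A).
Stem-loop of most H1, H2A, H2B and H3 genes: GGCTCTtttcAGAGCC
Stem-loop of HIST1H2BK and 9 others: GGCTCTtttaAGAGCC
Stem-loop of most H4 genes: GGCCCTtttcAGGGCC
Stem-loop of HIST2H4A, HIST2H4B, HIST1H4I and HIST1H4K: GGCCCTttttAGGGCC

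A further group was set apart within the replication-dependent genes, 10 genes known also to give polyadenylated transcripts: HIST1H1C, HIST1H2AC, HIST1H2BC, HIST1H2BD, HIST1H2BJ, HIST1H2BK, HIST2H2BE, HIST1H4H, HIST2H2AA3 and HIST2H2AA4. This list was chosen with earlier results of these data known. The split between it and the other genes below is therefore a description and not a test of the list. All 10 hold a perfect stem-loop. The poly(A) signal letters AATAAA followed within 20 bases of the loop in 4 of them, 12 bases after it in HIST1H1C and HIST1H2BD and 13 bases after it in HIST2H2AA3 and HIST2H2AA4. They did so in none of the 52 other genes with a stem-loop, where the closest AATAAA lay 102 bases beyond it. Within 1000 bases after the loop the letters were found in 5 of the 10 genes and in 26 of the 52, 50% of each, so that the closeness and not the presence set these 4 genes apart. A match of letters is a description and not a used site.

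The target was lower in each knockdown: CCND3 was at 24.2%, 20.7% and 31.1% of its level with scrambled shRNA, and at 78%, 81.8% and 76% of the DMSO level with palbociclib. All 10 markers of B-lineage precursors were listed in every group, with summed levels from 61932 to 103083, while the 5 T cell markers summed to at most 7.70 and the 3 erythroid markers to at most 1.22. The 5 myeloid markers summed to 92.8 to 1168, the latter with CCND3 shRNA in RS4;11. Of 15 genes of S phase, such as PCNA and the MCM genes, all were lower after knockdown in NALM-6 and in RS4;11 and 3 in BV-173. With palbociclib all 15 were lower in NALM-6 and RS4;11, and 14 were lower and 1 higher in BV-173. Their median log2 ratios were −1.17, −1.77 and −0.49 with knockdown and −2.26, −3.32 and −1.49 with palbociclib. The part that this fall of S phase genes has in the histone values was not tested.

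Per kb of transcript, most captured histone RNA came from variant genes, which made up 81.5% to 98.2% of the summed histone level in the 12 groups. The replication-dependent genes made up 2.69%, 6.32% and 3.87% of the summed histone level per kb with scrambled shRNA. After CCND3 knockdown this share was 6.55%, 14.1% and 3.82%. It was thus larger in NALM-6 and RS4;11 and nearly the same in BV-173. With palbociclib the share went from 3.18% to 9.69%, from 3.8% to 18.4% and from 1.77% to 2.46%. The share also depends on the sum of the variants, which was lower in every treated group: with palbociclib it went from 38594 to 23491, from 36431 to 21581 and from 30146 to 21960.0 per kb. In BV-173 the sum of the replication-dependent genes went from 544 to 554 with palbociclib, nearly level, so that the larger share there came with the lower sum of the variants. In NALM-6 and RS4;11 this sum was larger, and within it the 10 genes of the polyadenylated list and the others went opposite ways. The list's summed level per kb went from 593 to 2084 in NALM-6 and from 658 to 4197 in RS4;11 with palbociclib, while that of the other replication-dependent genes went from 674 to 437 and from 782 to 685. In BV-173 the list went from 216 to 307 and the other genes from 329 to 246. After knockdown the list went, line by line, from 561 to 1359, from 1218 to 2654 and from 407 to 391 and the other genes from 463 to 448, from 1102 to 837 and from 1026 to 917. One gene weighed heavily in these sums: HIST1H2BK alone gave 10.3% to 44.1% of the replication-dependent sum per kb and was the highest gene in all 12 groups. Without it the sum still went from 1053 to 1663 in NALM-6 and from 1230.5 to 2729 in RS4;11 with palbociclib, but from 471 to 397 in BV-173, where the direction turned.

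**Figure D1:**
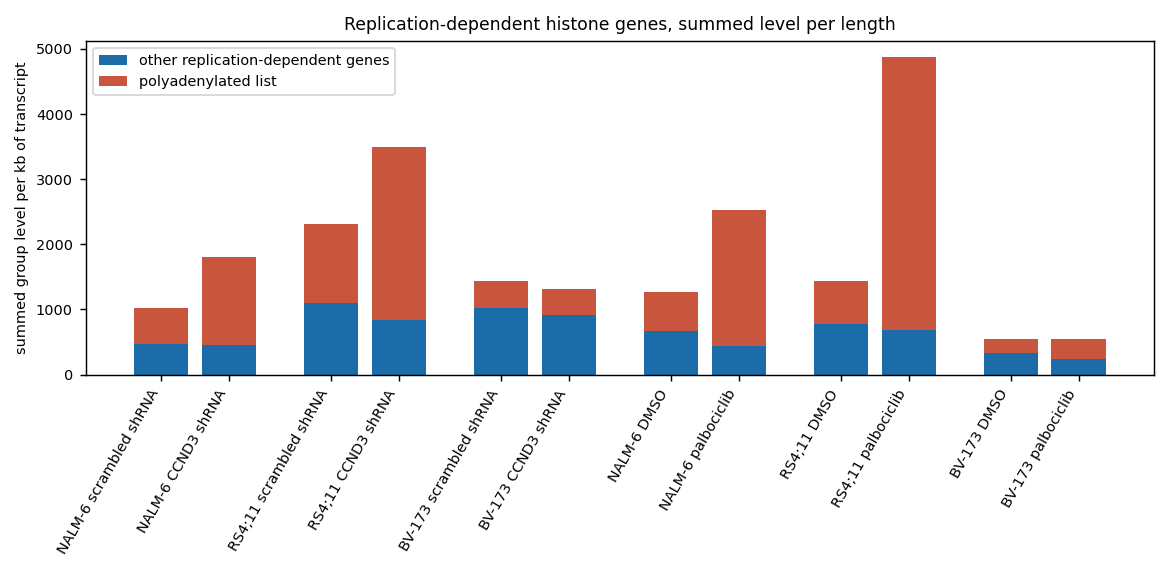
Summed group level per kb of transcript of the replication-dependent histone genes in the 12 groups, with the 10 genes of the polyadenylated list stacked on the others (linear axis from 0, 1 value per group). The treated bar exceeded its control in NALM-6 and RS4;11 under both treatments through the list alone, and the RS4;11 palbociclib group stood highest at 4882.

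After CCND3 knockdown in NALM-6, 15 of 57 listed replication-dependent genes were higher, against 7.82% of all genes, and 4 were lower, against 8.47% of all genes. In RS4;11, 9 of 62 were higher (all genes 9.73%) and 22 were lower (all genes 9.72%). In BV-173, 1 of 64 was higher (all genes 3.32%) and 1 lower (all genes 4.78%). The higher gene was HIST1H4J and the lower gene HIST1H2BG. The polyadenylated list and the other genes parted. Of the 10 list genes, 8 were higher in NALM-6 and 7 in RS4;11, with none lower in either, and in BV-173 none was called. Of the other genes, 7 of 47, 2 of 52 and 1 of 54 were higher and 4, 22 and 1 lower. The median log2 ratios were 0.99, 0.82 and −0.07 for the list and −0.16, −0.44 and −0.14 for the other genes, against 0.01, 0.01 and −0.01 for all genes. No replication-dependent gene passed the fold in 1 direction in every line, 9 were higher in 2 lines and 3 lower in 2 lines. With a minimum mean level of 10, the median of all replication-dependent genes turned from −0.08 to 0.89 in NALM-6 and from −0.35 to 0.12 in RS4;11. This mean includes the treated level, so the minimum is tied to the ratio itself.

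With palbociclib in NALM-6, 18 of 60 replication-dependent genes were higher (all genes 21.4%) and 26 lower (all genes 14.9%). In RS4;11, 18 of 63 were higher (all genes 16.7%) and 27 lower (all genes 15%). In BV-173, 5 of 62 were higher (all genes 13.6%) and 13 lower (all genes 11.9%). Of these 62 genes, 57 had a mean level under 10, where folds can be understated. The share of higher genes was thus 30%, 28.6% and 8.06%, the last below the share of all genes, and that of lower genes was 43.3%, 42.9% and 21%, above the share of all genes in each line. Of the 10 list genes, 9 were higher and 1 lower in NALM-6, 9 higher in RS4;11 and 2 higher in BV-173. The gene that was lower was HIST1H2BJ. Of the other genes, 9 of 50, 9 of 53 and 3 of 52 were higher and 25, 27 and 13 lower. The medians were 1.51, 2.10 and 0.19 for the list and −0.64, −0.60 and −0.25 for the others, against 0.06, 0.01 and 0.04 for all genes. Over the 3 lines, HIST1H2BK, HIST2H2BE, HIST1H3E, HIST2H4A and HIST2H4B were higher in each, and HIST1H1B, HIST1H1E, HIST1H2AH, HIST2H2AC, HIST1H3C, HIST1H3I, HIST1H3J and HIST1H4C lower in each. Among genes with a mean level of at least 10, the list had 8 of 8 higher in NALM-6 and in RS4;11, and the other genes 4 of 7 and 8 of 12 higher, with 3 and 4 lower. Most genes that were lower had a mean level under 10. With that minimum the median of all replication-dependent genes turned from −0.38 to 1.49, from −0.35 to 1.25 and from −0.18 to 0.55. The mean is taken over the control and the treated level, so this minimum is tied to the ratio itself. In RS4;11 it kept HIST1H2AE (from 6.94 to 29.8) and dropped HIST1H2AH (from 15.4 to 2.11). Counts and medians with this minimum thus follow in part from it.

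**Figure D2:**
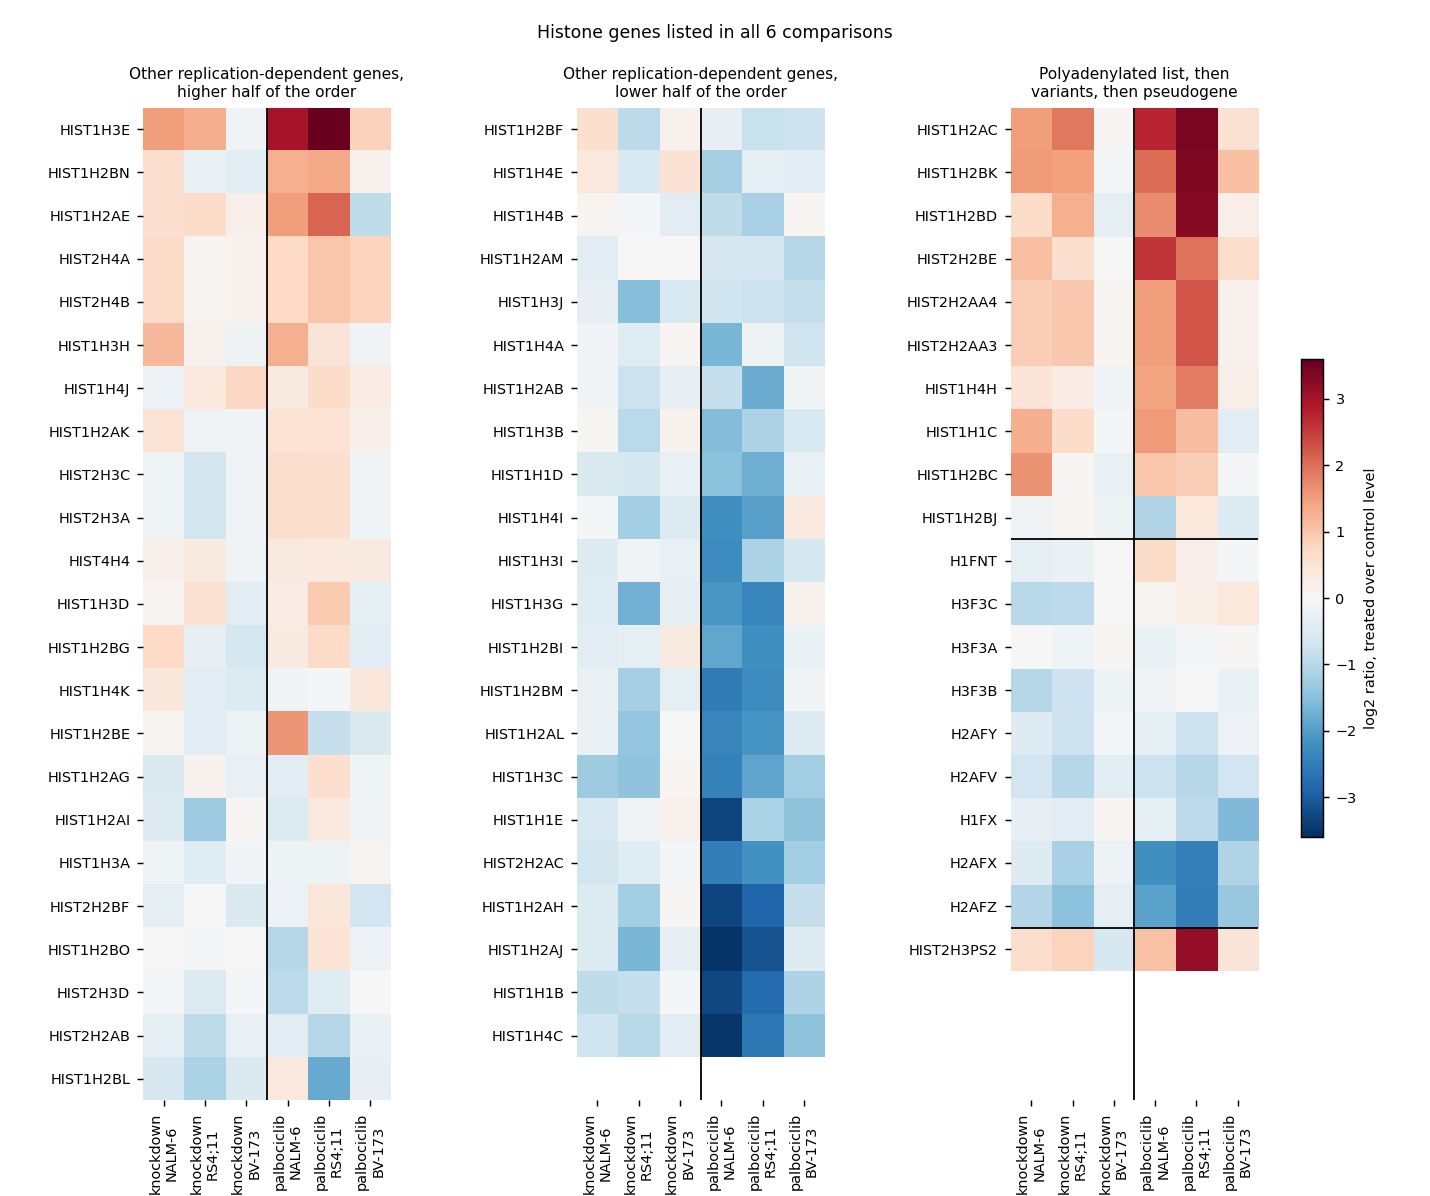
Log2 ratio of the treated over the control group level for the 65 histone genes listed in all 6 comparisons, 1 column per comparison, red for higher and blue for lower (colour limits 3.6 either way), each block ordered by the mean palbociclib log2 ratio over the 3 lines. Of the 10 list genes 9 were red in both NALM-6 and RS4;11 with palbociclib, the lower block of the 45 other replication-dependent genes was mostly blue there, and the BV-173 columns were pale.

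The list genes are described first, by their levels. HIST1H2BK, which encodes an H2B and lies on chromosome 6 from 27138293 to 27146858 (GRCh38.p14, as all positions of single genes here), went from 154 to 448, from 317 to 882 and from 124 to 118 after knockdown. With palbociclib it went from 184 to 740.4, from 180.4 to 1858 and from 63.5 to 135, log2 ratios of 2.01, 3.37 and 1.09. It was higher in 5 of the 6 treated groups, the exception being knockdown in BV-173 (−0.07). HIST2H2BE, an H2B gene of the smaller cluster on chromosome 1 from 149884459 to 149886682, went from 134 to 285, from 219 to 329 and from 26.2 to 26.5 after knockdown, with the RS4;11 log2 ratio of 0.59 at the edge of the fold used. With palbociclib it went from 61.1 to 361, from 49.4 to 191 and from 10.5 to 16.5 (log2 ratios 2.56, 1.95 and 0.64). Its pattern over the lines was that of HIST1H2BK, but NALM-6 and not RS4;11 had the largest ratio with palbociclib.

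HIST1H2AC, which encodes an H2A and lies on chromosome 6 from 26124172 to 26124690, had a mean log2 ratio over the 3 lines of 1.15 with knockdown, the largest of the replication-dependent genes listed in all 3, and of 2.24 with palbociclib, where HIST1H3E, described below, had 2.45. It went from 14.5 to 41.1, from 29.7 to 112 and from 18.5 to 19 after knockdown and from 14.7 to 98, from 15.5 to 165 and from 16.1 to 23.5 with palbociclib. In BV-173 its log2 ratios of 0.04 and 0.55 were both under the fold. HIST1H2BD, an H2B gene on chromosome 6 from 26158121 to 26171349, went from 13.5 to 43.6, from 21.7 to 211 and from 11.5 to 13.6 with palbociclib (log2 ratios 1.69, 3.28 and 0.25) and had log2 ratios of 0.66, 1.27 and −0.34 after knockdown. HIST1H1C, which encodes a linker histone H1 and lies on chromosome 6 from 26055740 to 26056470, went from 90.9 to 225, from 116 to 183 and from 61.5 to 58.7 after knockdown and from 88.1 to 255, from 74.6 to 162 and from 38.7 to 29 with palbociclib. It was higher in NALM-6 and RS4;11 under both treatments, while its BV-173 log2 ratio with palbociclib was −0.42. HIST2H2AA3 and its copy HIST2H2AA4, H2A genes on chromosome 1, went from 39.6 to 111, from 60.1 to 287 and from 7.96 to 8.85 with palbociclib and had log2 ratios of 0.89, 0.98 and 0.08 after knockdown.

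The last 3 genes of the list had low levels. HIST1H2BC had log2 ratios of 1.61, 0.05 and −0.26 after knockdown and 0.99, 0.88 and −0.06 with palbociclib, at levels from 1.74 to 22.3. The exons of HIST1H2BC and of HIST1H4H each overlap another annotated gene, so their reads may in part be that gene's. HIST1H4H, the list's H4 gene, had 0.47, 0.27 and −0.14 and 1.41, 1.84 and 0.22. HIST1H2BJ was the gene that did not follow the list. Its palbociclib log2 ratio was −1.08 in NALM-6, where its level went from 5.56 to 2.62, and 0.38 in RS4;11, and no knockdown value passed the fold.

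Outside the list, the genes with the largest mean falls with palbociclib were of several types: the H4 gene HIST1H4C, the H1 genes HIST1H1B and HIST1H1E, and the H2A genes HIST1H2AJ, HIST1H2AH and HIST2H2AC. HIST1H4C, which encodes histone H4 and lies on chromosome 6 from 26103933 to 26104337, went from 41.9 to 3.67, from 15.5 to 2.55 and from 13 to 4.75 with palbociclib (log2 ratios −3.51, −2.61 and −1.46). After knockdown it went from 22 to 13.3, from 14.6 to 7.35 and from 13.9 to 10.4, lower in NALM-6 and RS4;11 and not past the fold in BV-173. It had the largest fall of the mean log2 ratio over the 3 lines with palbociclib, −2.53, of the replication-dependent genes listed in all 3. HIST1H1B, a linker histone gene on chromosome 6 from 27866792 to 27867588, went from 21.7 to 2.23, from 27.9 to 4.13 and from 8.2 to 3.82 with palbociclib and had log2 ratios of −0.90, −0.84 and −0.05 after knockdown. HIST1H1E, on chromosome 6 from 26156329 to 26157115, went from 18.1 to 1.83, from 16.8 to 7.63 and from 11 to 4.03 with palbociclib and had −0.55, −0.13 and 0.15 after knockdown, all under the fold. Within the H1 genes of NALM-6, HIST1H1C thus stood apart with a palbociclib log2 ratio of 1.53 against −3.29 for HIST1H1B and −3.31 for HIST1H1E. HIST2H2AC, an H2A gene on chromosome 1 from 149886918 to 149887411, went from 20.2 to 3.64, from 11.3 to 2.49 and from 10.6 to 4.5 with palbociclib (log2 ratios −2.48, −2.18 and −1.24), and after knockdown had −0.67, −0.43 and −0.07.

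Of the genes not on the list, 9 of 50, 9 of 53 and 3 of 52 were higher with palbociclib. These were 18%, 17% and 5.77%, near or below the shares of all genes (21.4%, 16.7% and 13.6%). Lower were 25, 27 and 13 (all genes 14.9%, 15% and 11.9%). Among the higher genes, HIST1H2AE, described further below, had palbociclib log2 ratios of 1.51, 2.10 and −0.92. HIST1H2BN had 1.27, 1.37 and 0.12, and HIST1H3H had 1.28, 0.48 and −0.12. After knockdown HIST1H2AE had 0.62, 0.66 and 0.18, HIST1H2BN 0.62, −0.23 and −0.39, and HIST1H3H 1.16, 0.14 and −0.18. HIST1H3E, an H3 gene on chromosome 6 from 26224178 to 26227473 and 1 of the 3 without a match to the stem-loop rule, went from 3.44 to 26.9, from 2.48 to 29.4 and from 2.49 to 4.39 with palbociclib and had the largest single ratio of all replication-dependent genes, 3.57 in RS4;11. After knockdown it had 1.51, 1.30 and −0.14. HIST2H4A and its copy HIST2H4B had log2 ratios of 0.72, 0.99 and 0.81 with palbociclib and 0.69, 0.11 and 0.12 after knockdown, at levels from 1.91 to 24.6. The H3 gene HIST1H3D, whose exons overlap another annotated gene, went from 7.32 to 9.04, from 11.3 to 21.8 and from 5.92 to 4.71 with palbociclib, and passed the fold in RS4;11 (0.94). The H4 gene HIST1H4J had log2 ratios of 0.32, 0.65 and 0.31 with palbociclib and −0.21, 0.38 and 0.76 after knockdown. The pseudogene HIST2H3PS2, on chromosome 1 from 143902386 to 143905977 with another annotated gene overlapping it, had 0.62, 0.80 and −0.57 after knockdown and 1.05, 3.18 and 0.47 with palbociclib, where its level in RS4;11 went from 4.42 to 40. Reads shared with H3 genes of like sequence make its level uncertain.

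Many H2A and H2B genes lie head to head and share 1 stretch of promoter. The 10 such pairs, with under 1000 bases between their start codons, allow genes with a common promoter region to be set side by side. Both genes of a pair were often not called alike. With palbociclib, 2 of 10 pairs had 1 gene higher and the other lower in each of the 3 lines, 1 pair in NALM-6 and 2 in RS4;11 had both higher, and 1 in each of these lines had both lower. In BV-173 no pair had both genes called in 1 direction. The 2 pairs with opposite calls were HIST2H2BE/HIST2H2AC and HIST1H2BK/HIST1H2AH in all 3 lines. For HIST2H2BE and HIST2H2AC the palbociclib log2 ratios were 2.56 and −2.48, then 1.95 and −2.18, then 0.64 and −1.24, line by line. For HIST1H2BK and HIST1H2AH they were 2.01 and −3.31, then 3.37 and −2.87, then 1.09 and −0.84. In both pairs the H2B gene, which is on the list, was the higher one, although the H2A gene of each pair starts 235 or 250 bases away. HIST1H2AH went from 9.55 to 0.966, from 15.4 to 2.11 and from 1.44 to 0.808 with palbociclib, so its BV-173 ratio rests on levels near 1. After knockdown, opposite calls were made for HIST2H2BE/HIST2H2AC in NALM-6 (1.09 and −0.67) and for HIST1H2BK/HIST1H2AH in RS4;11 (1.48 and −1.21), and for no pair in BV-173.

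**Figure D3:**
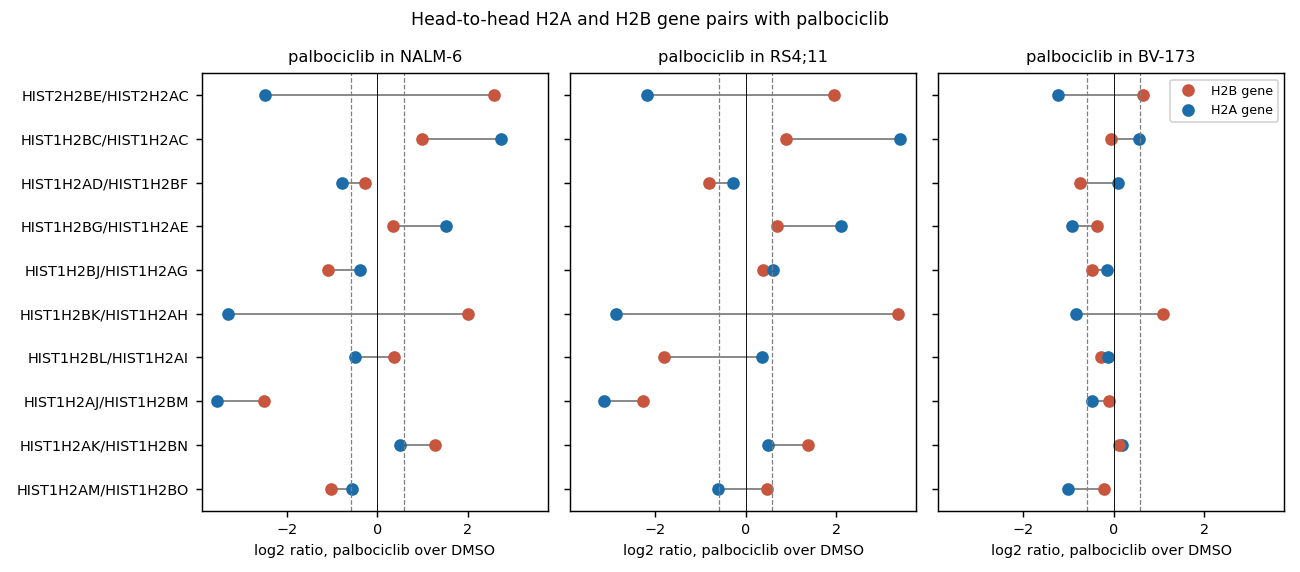
Log2 ratio of the palbociclib over the DMSO group level for both genes of the 10 head-to-head pairs, 1 panel per line, with H2B genes in red, H2A genes in blue and dashed lines at the 1.5-fold limits. HIST2H2BE/HIST2H2AC and HIST1H2BK/HIST1H2AH lay on opposite sides of both limits in every line, 3.37 and −2.87 for the latter in RS4;11, while HIST1H2AJ/HIST1H2BM lay on the lower side for both genes in NALM-6 and RS4;11.

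The regions between the 2 transcript starts are printed for the 2 pairs with opposite calls, for HIST1H2BC/HIST1H2AC, with both genes higher in NALM-6 and RS4;11 (0.99 and 2.74, 0.88 and 3.42), and for HIST1H2AJ/HIST1H2BM, with both lower there (−3.54 and −2.51, −3.13 and −2.26). They are written from hg38, plus strand, and lie at chr1:149886683-149886917, chr6:27146856-27147105, chr6:26123927-26124171 and chr6:27814778-27815021. The second gene of each name is read to the right and the first to the left. Capitals mark 3 motifs on either strand, so that their reverse complements are in capitals too: the CCAAT box, the TATA box written as TATAAA, and the octamer ATTTGCAT. A TATA box of one strand can overlap that of the other, as it does in the region of HIST1H2BK.
HIST2H2BE/HIST2H2AC: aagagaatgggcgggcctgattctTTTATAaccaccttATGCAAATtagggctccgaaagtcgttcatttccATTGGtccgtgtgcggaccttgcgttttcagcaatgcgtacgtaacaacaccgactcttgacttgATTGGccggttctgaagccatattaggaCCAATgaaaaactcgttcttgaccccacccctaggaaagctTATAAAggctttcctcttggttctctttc
HIST1H2BK/HIST1H2AH: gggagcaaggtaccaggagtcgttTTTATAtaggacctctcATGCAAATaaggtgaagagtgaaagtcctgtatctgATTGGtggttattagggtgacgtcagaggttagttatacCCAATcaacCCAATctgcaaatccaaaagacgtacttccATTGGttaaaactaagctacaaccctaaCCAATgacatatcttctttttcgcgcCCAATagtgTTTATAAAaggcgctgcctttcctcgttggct
HIST1H2BC/HIST1H2AC: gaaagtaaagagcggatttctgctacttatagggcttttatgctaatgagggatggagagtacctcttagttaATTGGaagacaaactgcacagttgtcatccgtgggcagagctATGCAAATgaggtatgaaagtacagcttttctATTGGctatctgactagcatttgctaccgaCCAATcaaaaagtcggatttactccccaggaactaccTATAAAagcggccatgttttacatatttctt
HIST1H2AJ/HIST1H2BM: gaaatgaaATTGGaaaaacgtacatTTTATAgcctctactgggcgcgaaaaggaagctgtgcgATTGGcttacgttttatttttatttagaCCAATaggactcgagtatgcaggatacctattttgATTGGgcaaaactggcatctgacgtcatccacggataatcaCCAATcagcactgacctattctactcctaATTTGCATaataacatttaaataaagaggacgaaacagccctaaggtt

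All 4 regions hold CCAAT boxes (3, 6, 3 and 5 places) and 1 octamer, and TATAAA or its reverse was found in 2, 3, 1 and 1 places. The pairs with opposite calls and the pairs called alike each held all 3 motifs. TATAAA or its reverse stood in 2 and 3 places in the former and in 1 place in each of the latter. Overlapping places of the 2 strands were counted separately. Among the pairs not printed, HIST1H2BJ/HIST1H2AG had 3 such places and HIST1H2BL/HIST1H2AI had 2, and neither pair had opposite calls in any comparison. The number of places thus did not set the pairs with opposite calls apart. Whether these letters bear on the calls was not tested. In RefSeq promoters of 250 bases before to 50 after the start, matched for 60 of the 65 replication-dependent and 13 of the 15 variant genes, CCAAT was held by 85% of replication-dependent and 76.9% of variant promoters against 35.7% of all 27305, and TATAAA by 66.7% and 30.8% against 12%. The octamer, known from H2B promoters, was held by 40% and 7.69% against 1.8% of all. By type it stood in 81.2% of the 16 H2B and 71.4% of the 14 H2A promoters, in 8.33% of the 12 H3 promoters and in no H1 or H4 promoter, while CCAAT stood in all H1, H2A, H2B and H3 promoters and in 25% of the 12 H4 promoters. Of the 10 list promoters, 90% held CCAAT, 80% TATAAA and 50% the octamer.

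The variant genes were mostly lower or not called. After knockdown, 5, 6 and 0 of 14 listed variants were lower, and none was higher in any line. With palbociclib, 3 of 13, 1 of 12 and 0 of 12 were higher and 3, 5 and 4 lower. The shares of lower variants were 35.7%, 42.9% and 0% after knockdown and 23.1%, 41.7% and 33.3% with palbociclib, to be read against the shares of all genes above. Of the 8 or 9 variants with a mean level of at least 10, 5, 6 and 0 were lower after knockdown and 3, 5 and 4 with palbociclib.

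H2AFZ, the main H2A.Z gene, on chromosome 4 from 99948088 to 99950275, had the lowest mean log2 ratio over the 3 lines of the variants listed in all 3, −0.95 with knockdown and −1.93 with palbociclib, the latter close to the −1.92 of H2AFX. Its exons overlap H2AZ1-DT, so reads of both may not be told apart. It went from 11577 to 5575, from 8901 to 3186 and from 9004 to 7185 after knockdown and from 11799 to 3108, from 9502 to 1680.2 and from 7655 to 2970.0 with palbociclib (log2 ratios −1.05, −1.48 and −0.33 and −1.92, −2.50 and −1.37). It was lower in 5 of the 6 comparisons, the exception being knockdown in BV-173. H2AFV, the second H2A.Z gene, on chromosome 7 from 44826889 to 44848126, went from 4067 to 2382, from 1528 to 743 and from 2222 to 1371 with palbociclib and from 3846 to 2405, from 1551 to 762 and from 2795 to 2114 after knockdown, lower in the same 5 comparisons. H2AFX, the H2A.X gene, on chromosome 11 from 119093874 to 119095465, is known to end its mRNA either at a stem-loop or at a poly(A) site. It went from 3963 to 856, from 5284 to 958 and from 3406 to 1610.0 with palbociclib, log2 ratios of −2.21, −2.46 and −1.08, and had −0.45, −1.16 and −0.17 after knockdown, past the fold in RS4;11. These 3 genes were the variants lower in all 3 lines with palbociclib. Knockdown had no such variant. H2AFY, the macroH2A gene on chromosome 5 from 135334381 to 135399887, had log2 ratios of −0.46, −0.76 and −0.06 after knockdown and −0.32, −0.77 and −0.22 with palbociclib, past the fold in RS4;11 under both.

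The H3 variant genes gave different values under the 2 treatments. H3F3A, on chromosome 1 from 226061831 to 226072019, and H3F3B, on chromosome 17 from 75776434 to 75779779, encode the same protein. H3F3A stayed within the fold in all 6 comparisons, with log2 ratios from −0.25 to 0.06. H3F3B went from 11502 to 5602, from 13143 to 7768 and from 10286 to 8990.4 after knockdown, log2 ratios of −1.04, −0.76 and −0.19, and from 8332 to 7729.6, from 11846 to 11716 and from 7763 to 6534 with palbociclib, log2 ratios of −0.11, −0.02 and −0.25. It was thus lower in NALM-6 and RS4;11 after knockdown and not called with palbociclib, a contrast between treatments that was not tested. Per kb, H3F3A made up 72.1% of the sum of both genes in NALM-6 with scrambled shRNA and 84.3% after knockdown, and 81.7% with DMSO and 80.2% with palbociclib. In RS4;11 these shares were 69.1%, 77.4%, 74.1% and 73.2%, and in BV-173 78.3%, 81.1%, 79.1% and 82.3%, larger under both treatments. H3F3C, an intronless gene of like sequence on chromosome 12, went from 81.2 to 40.5, from 75.1 to 38.9 and from 12.1 to 12 after knockdown and from 51.8 to 54.4, from 65.3 to 76.5 and from 8.85 to 11.6 with palbociclib, called in the same comparisons as H3F3B, and its reads may be shared with that gene.

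The linker variants differed by line. H1FX, on chromosome 3 from 129314771 to 129316286, whose exons overlap the antisense gene H1-10-AS1 so that reads of both cannot be told apart without strand, went from 4207 to 3383, from 4649.9 to 2437 and from 2335 to 777 with palbociclib. Its log2 ratios were −0.31, −0.93 and −1.59 there, largest in BV-173, and −0.31, −0.40 and 0.08 after knockdown. H1F0, the linker variant known from resting and differentiated cells, on chromosome 22 from 37805229 to 37807432, had a level above 10 only in NALM-6. It went from 1417 to 887 after knockdown (−0.68) and from 312 to 486 with palbociclib (0.64), the only histone gene called in opposite directions by the 2 treatments in 1 line. In RS4;11 its levels were 2.56 to 3.79, and in BV-173 at most 0.171. H2AFJ had levels of 275 to 335 after knockdown and 318 to 244 with palbociclib in BV-173, and of at most 1.37 in the other lines. The other 5 variants, H1FNT, H2AFB1, H2AFB2, H2AFB3 and H2AFY2, had mean levels from 0.177 to 1.34. The calls among them, H1FNT and H2AFB1 higher in NALM-6 and H2AFB2 higher in RS4;11 with palbociclib, rest on such levels.

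**Figure D4:**
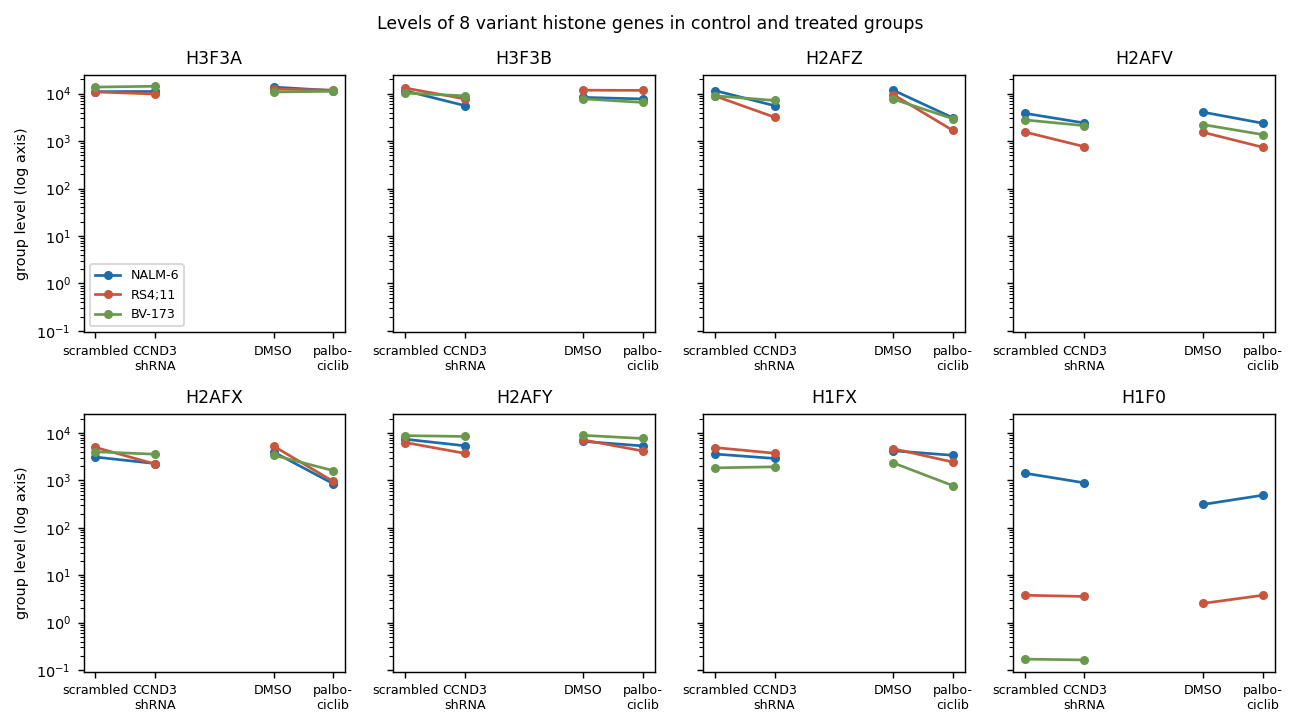
Group levels of 8 variant histone genes on a log axis, with lines joining each control to its treated group and 1 colour per cell line (1 value per group, the pairs not on 1 scale). H2AFZ, H2AFV and H2AFX sloped down in all 3 lines with palbociclib, H3F3A was flat, H3F3B sloped down after knockdown in NALM-6 and RS4;11, and H1F0 was seen mainly in NALM-6.

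Set side by side, the treatments gave the same direction wherever both called a replication-dependent gene. In NALM-6, of 57 such genes listed in both tables, 14 were higher in both and 4 lower in both, 4 were higher and 20 lower with palbociclib only, and 1 was higher with knockdown only. In RS4;11, of 62, 9 were higher in both and 19 lower in both, 9 higher and 8 lower with palbociclib only, and 3 lower with knockdown only. In BV-173 none of 61 was called by both, 5 were higher and 13 lower with palbociclib only, and 1 was higher and 1 lower with knockdown only. With palbociclib every type held genes of both directions in NALM-6 and RS4;11, but in BV-173 no H1 or H2A gene was higher, and 2 and 4 of them were lower. Of the H1 genes, 3 of 5 were lower and 1 higher in NALM-6 and in RS4;11, and of the H2B genes 6 were higher and 5 lower of 15 in NALM-6 and 6 higher and 6 lower of 16 in RS4;11.

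**Figure D5:**
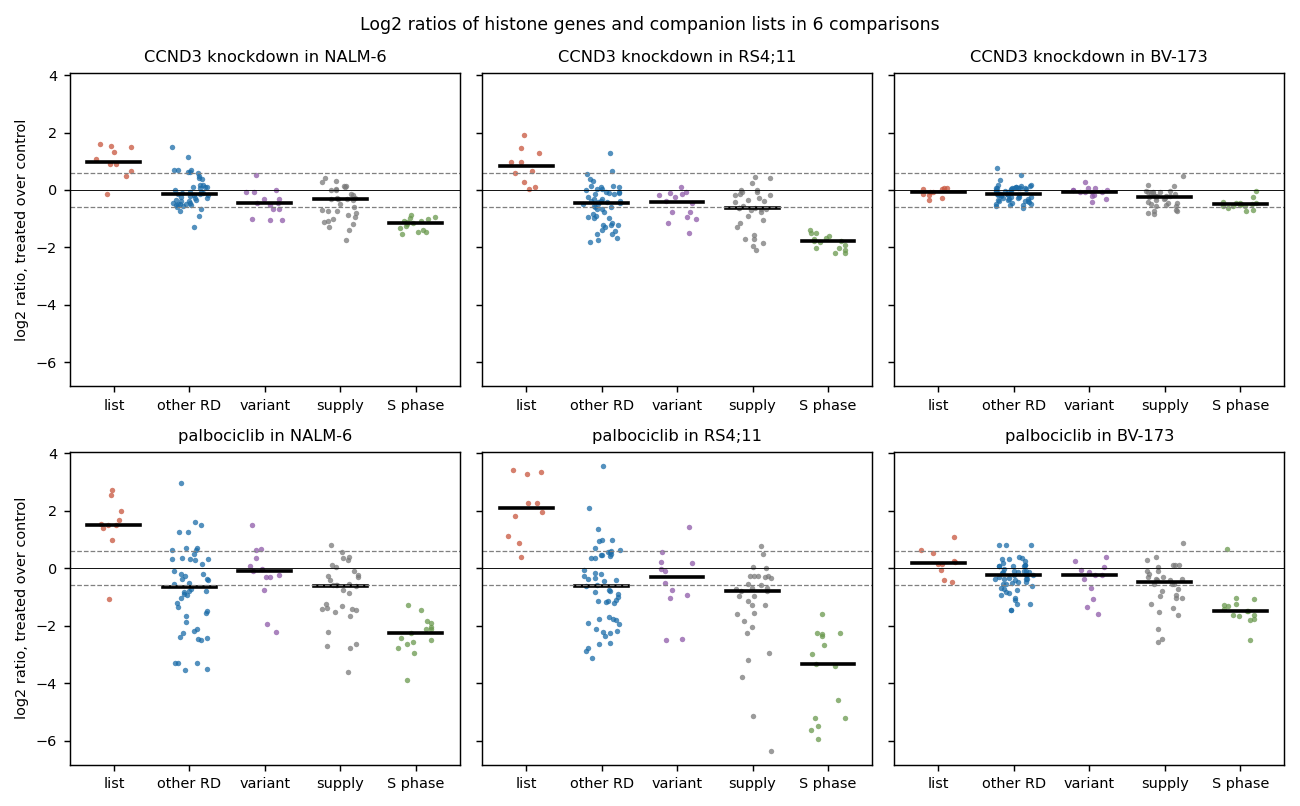
Log2 ratios in the 6 comparisons, 1 dot per gene and a bar at the median, for the polyadenylated list, the other replication-dependent genes (other RD), the variants, 32 histone supply genes and 15 S phase genes, with dashed lines at the 1.5-fold limits. In NALM-6 and RS4;11 the list lay highest and the S phase genes lowest under both treatments, with medians of 2.10 and −3.32 with palbociclib in RS4;11.

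Genes that make, process and deposit histones were more often lower than higher. Of 32 such supply genes, 14, 17 and 5 were lower after knockdown (all genes 8.47%, 9.72% and 4.78%) with none higher, and 17, 20 and 13 were lower with palbociclib (all genes 14.9%, 15% and 11.9%) with 1 higher in each line. These were 15.6% to 62.5% of the supply genes, and in 3 of the 6 comparisons most were not called. SLBP, which binds the stem-loops printed above, went from 5494 to 3278, from 4022 to 2171 and from 4749 to 4451 after knockdown and from 5693 to 2273, from 3913 to 1619 and from 3476 to 2013 with palbociclib, lower in all but the knockdown of BV-173. NPAT, the coactivator of replication-dependent histone genes, had log2 ratios of −0.49, −0.43 and −0.80 and −0.58, −0.73 and −0.32, and CASP8AP2, which acts with it, was lower in all 6 comparisons (−0.94, −0.70 and −0.83 and −1.38, −1.59 and −1.40). NPAT was thus lower past the fold in BV-173 after knockdown and in RS4;11 with palbociclib. Whether its level bears on the replication-dependent genes was not tested. The chaperones that hand H3 and H4 to replicating DNA were not alike. ASF1B had −1.29, −2.08 and −0.46 after knockdown and −2.65, −5.14 and −1.24 with palbociclib, where its RS4;11 level went from 2625 to 74.5. CHAF1A and CHAF1B, subunits of CAF-1, had −2.70, −2.96 and −1.62 and −2.76, −3.77 and −2.46 with palbociclib and −1.18, −1.71 and −0.56 and −1.10, −1.86 and −0.56 after knockdown. ASF1A, the paralog of ASF1B, had −0.13, −0.67 and −0.33 after knockdown and −0.28, −0.56 and −0.73 with palbociclib, and the CAF-1 subunit RBBP4 had −0.17, −0.54 and −0.23 and −0.60, −0.57 and −0.38. HIRA, which deposits the H3 variant outside replication, stayed within the fold in all 6 comparisons, from −0.09 to 0.38. Besides CASP8AP2, MMS22L, which acts on new H3 and H4 at forks (−1.07, −1.55 and −0.74 and −2.22, −3.20 and −2.11), and HJURP, the chaperone of the centromere H3 variant (−1.73, −1.96 and −0.73 and −3.61, −6.35 and −2.57), were lower in all 6.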

How the data were processed

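RNA-seq libraries (oligo dT enrichment) had been made from 34 samples in 12 groups. Per the labels and the submitters' processing notes, reads were filtered with SOAPnuke, aligned with Bowtie2, quantified with RSEM and compared with DESeq2, on hg38; versions are not given in the sources used here. The deposited tables hold 1 signal per group (a level scaled within each pair; how is not stated), so depth per sample and replicate spread are unknown. They also hold the authors' fold changes and p-values, which were not used.

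For each gene the log2 ratio of the 2 signals was taken (Python 3.11.15, numpy 2.4.6, pandas 2.3.3, matplotlib 3.10.9), with no pseudocount and no filter. No test was possible. The computation of calls (a fold of at least 1.5) was checked on simulated levels, which gives no error rate for them. Levels per kb used each table's own length. Named genes were CCND3, the highest members per class and type (at most 2), the 5 largest mean falls and rises per treatment, members called alike in all 6 tables or oppositely by the treatments, and a set of supply genes; other names were chosen after values were seen. The members, the lists and the rule were chosen with earlier results of these data known, and the stem-loop, gene pair and promoter scans after the tables were seen. Alternatives were a fold of 2, a mean level of at least 10, centring on the median of all genes, a pseudocount of 1 and leaving out each line. Genes matched GENCODE 44 by NCBI names; promoters and single gene positions are from RefSeq (GRCh38.p14).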

Additional observations from a re-analysis of the deposited data

Results flagged for a closer look

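Of the histone genes, 3 were called in opposite directions in different cell lines under the same treatment. Each value is a difference between single group levels, so none of these differences was tested.

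HIST1H2AE, an H2A gene on chromosome 6, had a palbociclib log2 ratio of 1.51 in NALM-6 (level from 6.48 to 18.4) and 2.10 in RS4;11 (from 6.94 to 29.8) against −0.92 in BV-173 (from 5.85 to 3.09). The differences from BV-173 were 2.43 for NALM-6 and 3.02 for RS4;11. HIST1H2BE, an H2B gene, had 1.60 in NALM-6 and −0.84 in RS4;11 with palbociclib, a difference of 2.44, at levels from 0.474 to 1.90. HIST1H2BG, the H2B gene head to head with HIST1H2AE, had 0.71 in NALM-6 (from 4.80 to 7.87) and −0.64 in BV-173 (from 44.7 to 28.6) after CCND3 knockdown, a difference of 1.36. With DMSO in BV-173 its level was 1.52, far from the 44.7 with scrambled shRNA, though the comparisons are not on 1 scale. The gap was not particular to HIST1H2BG. In BV-173 the replication-dependent sum per kb was 1433 with scrambled shRNA and 544 with DMSO, and that of the variants 35561 and 30146. The cause of this gap between controls was not tested.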

How the results depend on the processing

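No paired analysis was possible because each table holds 1 value per group, and for the same reason no replicate could be left out. Of 96 recomputed counts 72 stayed within 1.5 times the value reported, and of 48 recomputed medians 29 moved by less than 0.1 (log2), a limit set here since no replicate spread is known. Centring on the median of all genes moved none of 36 values.

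With a fold of at least 2, replication-dependent genes higher after knockdown numbered 7, 4 and 0, line by line, and lower 1, 12 and 0. With palbociclib 13, 11 and 1 were higher and 20, 22 and 6 lower. Shares of all genes at this fold were not computed. Variants lower numbered 3, 3 and 0 after knockdown and 2, 3 and 3 with palbociclib, and those higher with palbociclib 1, 1 and 0.

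With a mean level of at least 10, 13, 26 and 27 replication-dependent genes remained for knockdown and 15, 20 and 5 for palbociclib. After knockdown 9, 9 and 1 were higher and 2, 7 and 1 lower, line by line. With palbociclib 12, 16 and 2 were higher and 3, 4 and 0 lower in the 3 lines. The medians, all below 0 without the minimum, were 0.89 in NALM-6 and 0.12 in RS4;11 after knockdown and 1.49, 1.25 and 0.55 in the 3 lines with palbociclib. The direction of the class median in these 5 comparisons thus depends on this minimum. It uses the mean of the control and treated levels, so it keeps or drops genes partly by their treated level. Medians of variants were −0.68 and −0.85 in NALM-6 and RS4;11 after knockdown and −0.31, −0.85 and −0.38 with palbociclib, and variants higher with palbociclib numbered 1 in NALM-6 and 0 in RS4;11.

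With a pseudocount of 1, the medians of replication-dependent genes were −0.22 for knockdown in RS4;11 and −0.23 and −0.14 for palbociclib in NALM-6 and RS4;11, that of variants was −0.32 for knockdown in RS4;11, and in BV-173 3 replication-dependent genes were higher and 8 lower with palbociclib.

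The median over replication-dependent genes of the mean log2 ratio over lines was −0.15 for knockdown and −0.21 for palbociclib. It was −0.048 without RS4;11 cells for knockdown, and −0.071 without NALM-6 and −0.32 without RS4;11 cells for palbociclib. For variants and knockdown it was −0.27, −0.16 without NALM-6 and −0.38 without BV-173 cells. The causes were not tested.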

Other observations

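CENPA, the centromere H3 variant, has a symbol outside the families described and is the histone that HJURP deposits. It was chosen after its values were seen. Its level went from 680.2 to 280.3 in NALM-6, from 306 to 121 in RS4;11 and from 471 to 350.1 in BV-173 after CCND3 knockdown, log2 ratios of −1.28, −1.34 and −0.43. With palbociclib it went from 1075 to 73.8, from 624 to 8.36 and from 612 to 154, log2 ratios of −3.86, −6.22 and −1.99. H2AFZ, the variant with the largest mean fall after knockdown, had −2.50 at most with palbociclib, in RS4;11.

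The annotated transcripts of the polyadenylated list differed in length. Of the 10 list genes, 3 had a transcript length in the tables over 200 bases longer than the coding sequence, and of the other 55 replication-dependent genes 2 had.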
